A study of Mus musculus with 15 samples.

Results

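Matrix metalloproteinases (MMPs), the ADAM and ADAMTS proteases and the tissue inhibitors of metalloproteinases (TIMPs) were examined in MC38 tumours. MC38 is a colon carcinoma cell line of the mouse, here implanted under the flank skin of C57BL/6 animals. Members were the genes of the deposited expression table whose Ensembl identifier carries a symbol beginning with Mmp, Adam, Adamts or Timp and a digit. They numbered 49 of 17712 genes: 17 MMPs, 13 ADAMs, 16 ADAMTS proteases and 3 TIMPs. Each tumour was injected once, in a volume of 100 µL, when it was about 5 mm across, and was taken 24 h later. The injection held vehicle (PBS with 5% DMSO and 5% glucose, 3 tumours), 50 µg of BO-112 (4 tumours), 100 µg of DMXAA (4 tumours) or the same doses of both agents together (4 tumours). BO-112 is poly I:C, which mimics viral double-stranded RNA, in a nanoparticle form, and DMXAA is an agonist of mouse STING, the adaptor of cytosolic DNA sensing. Age and sex of the mice are not given in the sources used here. RNA came from whole tumours, so fewer cells of a type and less RNA per cell cannot be told apart in any value below. The 3 comparisons with vehicle share the same 3 vehicle tumours.

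The members belong to families of zinc-dependent proteases and of their inhibitors, though not every ADAM is an active protease. MMPs cut collagens, gelatins, laminins and other matrix proteins and are mostly secreted as inactive precursors. ADAMs are mostly membrane-bound, and the active ones release the outer part of cytokines, growth factors and adhesion molecules, as ADAM17 does for TNF. ADAMTS proteases are secreted and cut proteoglycans such as aggrecan and versican, trim procollagens, or cut single substrates such as von Willebrand factor. TIMPs block the active site of MMPs and of some ADAMs and ADAMTS proteases, so a tissue holds both the enzymes and their brakes. Many MMP genes are known to be induced through AP-1, the dimer of Fos and Jun proteins.

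Of the 10 Mmp genes with a RefSeq promoter on mouse chromosome 9, the data table held 6 (Mmp13, Mmp12, Mmp3, Mmp10, Mmp8 and Mmp27), and their values are described below. Mmp3, Mmp10 and Mmp13 rose after BO-112, and the 100 bases before their RefSeq start sites each hold the AP-1 heptamer TGAGTCA or its reverse complement TGACTCA, as do the 100 bases before 1 of the RefSeq starts of Mmp12, which did not pass the test. These 4 stretches are printed 5′ to 3′ on the plus strand in build GRCm38.p6, with the AP-1 letters in capitals, to show the site in neighbouring genes with and without a call. They cover chr9:7445722-7445821 (Mmp3), chr9:7502242-7502341 (Mmp10), chr9:7272414-7272513 (Mmp13) and chr9:7347274-7347373 (Mmp12).
Mmp3: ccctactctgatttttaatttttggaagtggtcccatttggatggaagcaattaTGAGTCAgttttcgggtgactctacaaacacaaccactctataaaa
Mmp10: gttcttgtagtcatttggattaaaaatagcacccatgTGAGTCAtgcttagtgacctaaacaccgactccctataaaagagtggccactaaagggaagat
Mmp13: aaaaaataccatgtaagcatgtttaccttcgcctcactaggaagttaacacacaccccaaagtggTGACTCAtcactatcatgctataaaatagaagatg
Mmp12: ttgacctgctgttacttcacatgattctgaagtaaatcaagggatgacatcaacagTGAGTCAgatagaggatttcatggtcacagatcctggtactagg

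The RefSeq table matched 31 of the 49 members. Its windows are 300 bases long, from 250 bases before to 50 bases after the start. TGAGTCA, read on both strands, occurred in 5.20% of all 32851 windows and in those of Mmp3, Mmp10, Mmp12, Mmp13 and Adam19. Of the 9 members that rose with BO-112, 8 had a window and 3 of these held the heptamer. The match began 46 bases before the start in Mmp3, 63 in Mmp10 and 35 in Mmp13. A set of 3 other motifs was searched on both strands. An NF-kB form (GGG, 3 free bases, TTCC, in 5.56% of all windows) lay in Adam19 and Adamts13. An interferon-response form (GAAA, 2 free bases, GAAA, in 3.44%) lay in Mmp13. TATAAA (13.6%) lay in Mmp3, Mmp8, Mmp10, Mmp12, Mmp13 and Adamts1. These matches are descriptions of the letters and no factor's binding was measured.

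The libraries held 12725316 to 19660511 reads, and values are given as CPM, that is, read counts relative to library size, after the authors' library scaling. A total of 4 tumours stood far above the others in skeletal muscle markers. Acta1 reached 57.9 CPM in vehicle 2, 163 CPM in BO-112 1, 291 CPM in DMXAA 1 and 194 CPM in DMXAA 3, against at most 5.57 CPM elsewhere. DMXAA 2 and DMXAA 3 were high in short and low in long transcripts, the median deviation of short ones being 0.64 and 0.43 on the log2 scale. Of the epithelial markers, Cdh1 was at 25.6, 27.4 and 82.6 CPM in the vehicle tumours, Epcam stayed at or below 2.67 CPM in every tumour, and Krt8 and Krt18 were not analysed here. Fibroblast markers summed to 3850 to 6124 CPM in vehicle tumours. Exons of 13 members share at least 50 bases with another annotated gene, which leaves the level of Adam1a uncertain (63.7% of its exonic bases) and touches Timp3, Mmp19 and Adam15 from the opposite strand (21.3%, 22.3% and 20.6%). Whether the counting used strand is not given in the sources used here.

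In vehicle tumours the inhibitor Timp2 was the most abundant member per kilobase of exonic length, at 237 ± 28.4 CPM per kb (SD, n = 3). Next came the membrane-anchored Mmp14 at 92.9 ± 9.16 and the gelatinase Mmp2 at 86.2 ± 10.5 CPM per kb, which did not differ beyond their spread. Timp2 and Mmp14 are known to act together on the precursor of Mmp2, and these were the 3 highest members. Timp1 followed at 63.3 ± 6.15 and the sheddase Adam9 at 54.5 ± 2.00 CPM per kb. The gelatinase Mmp9 (36.3 ± 10.2), Adam10 (33.1 ± 0.880) and Adam8 (32.1 ± 5.71 CPM per kb) formed a group within their spread. Of the 48 neighbouring pairs in this order, 37 lay closer together than the larger SD of the pair. Over all 15 tumours 11 members averaged above 100 CPM and 7 averaged below 1 CPM. Members of the annotation without a value in the table, among them Mmp7, Timp4, Adam28 and Adamts17 to Adamts19, were not analysed here.

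**Figure D1:**
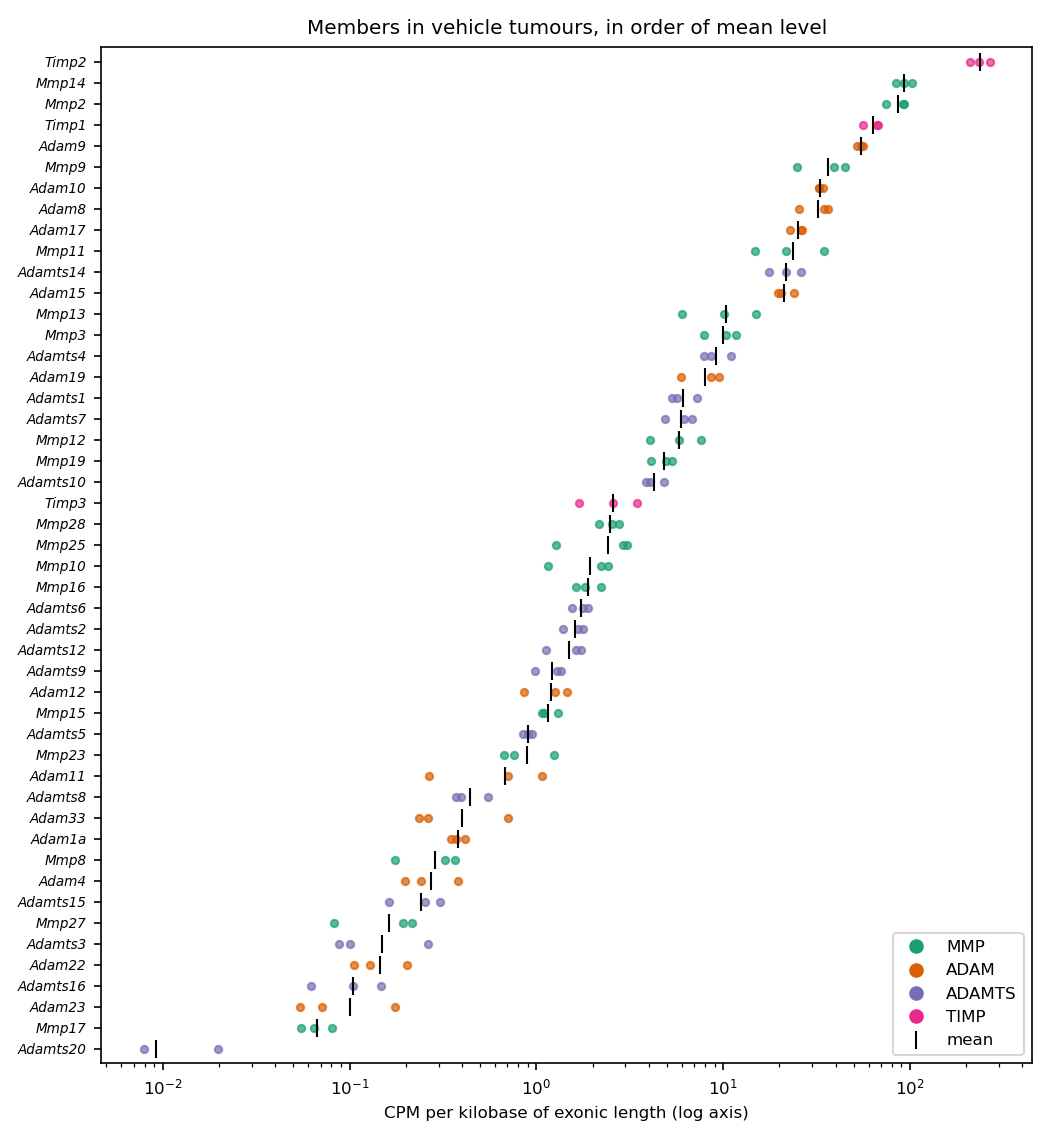
Level of the members in the 3 vehicle tumours in CPM per kilobase of exonic length on a log axis, with 1 point per tumour, the mean as a tick and colour for the family. Timp2 leads at 237 CPM per kb, ahead of Mmp14, Mmp2 and Timp1. Adamts13, with no read in these tumours, and single values of 0 are not drawn.

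Changes were tested with limma on the log2 CPM of all 17712 genes and called at an adjusted p under 0.05. After BO-112, 11 members changed, 9 upward and 2 downward, which is 22.4% of the 49 against 11.9% of all genes (7.64% higher and 4.31% lower). The median member stood 0.25 above vehicle on the log2 scale, and the median gene at -0.04. After DMXAA, 3 members changed, 2 upward and 1 downward, or 6.12% against 1.25% of all genes (1.08% higher and 0.169% lower). With both agents 6 changed, 5 upward and 1 downward, or 12.2% against 2.67% of all genes (2.49% higher and 0.181% lower). Timp1 was the only member past the threshold in all 3 comparisons with vehicle. Ranges that do not overlap were common: 35% of all genes lay apart from vehicle with BO-112, 11.5% with DMXAA and 16.5% with both agents. Of the members, 18 lay wholly above and 7 wholly below vehicle with BO-112. With DMXAA these were 5 and 6, and with both agents 11 and 3. The 5 with DMXAA count Adamts13, which had 0 reads in DMXAA 2 and in each vehicle tumour. Its log2 values lay apart there only through the 0.5 reads added and the library sizes. The abundant Timp2, Mmp2 and Mmp14 did not pass the test against vehicle in any treated group.

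**Figure D2:**
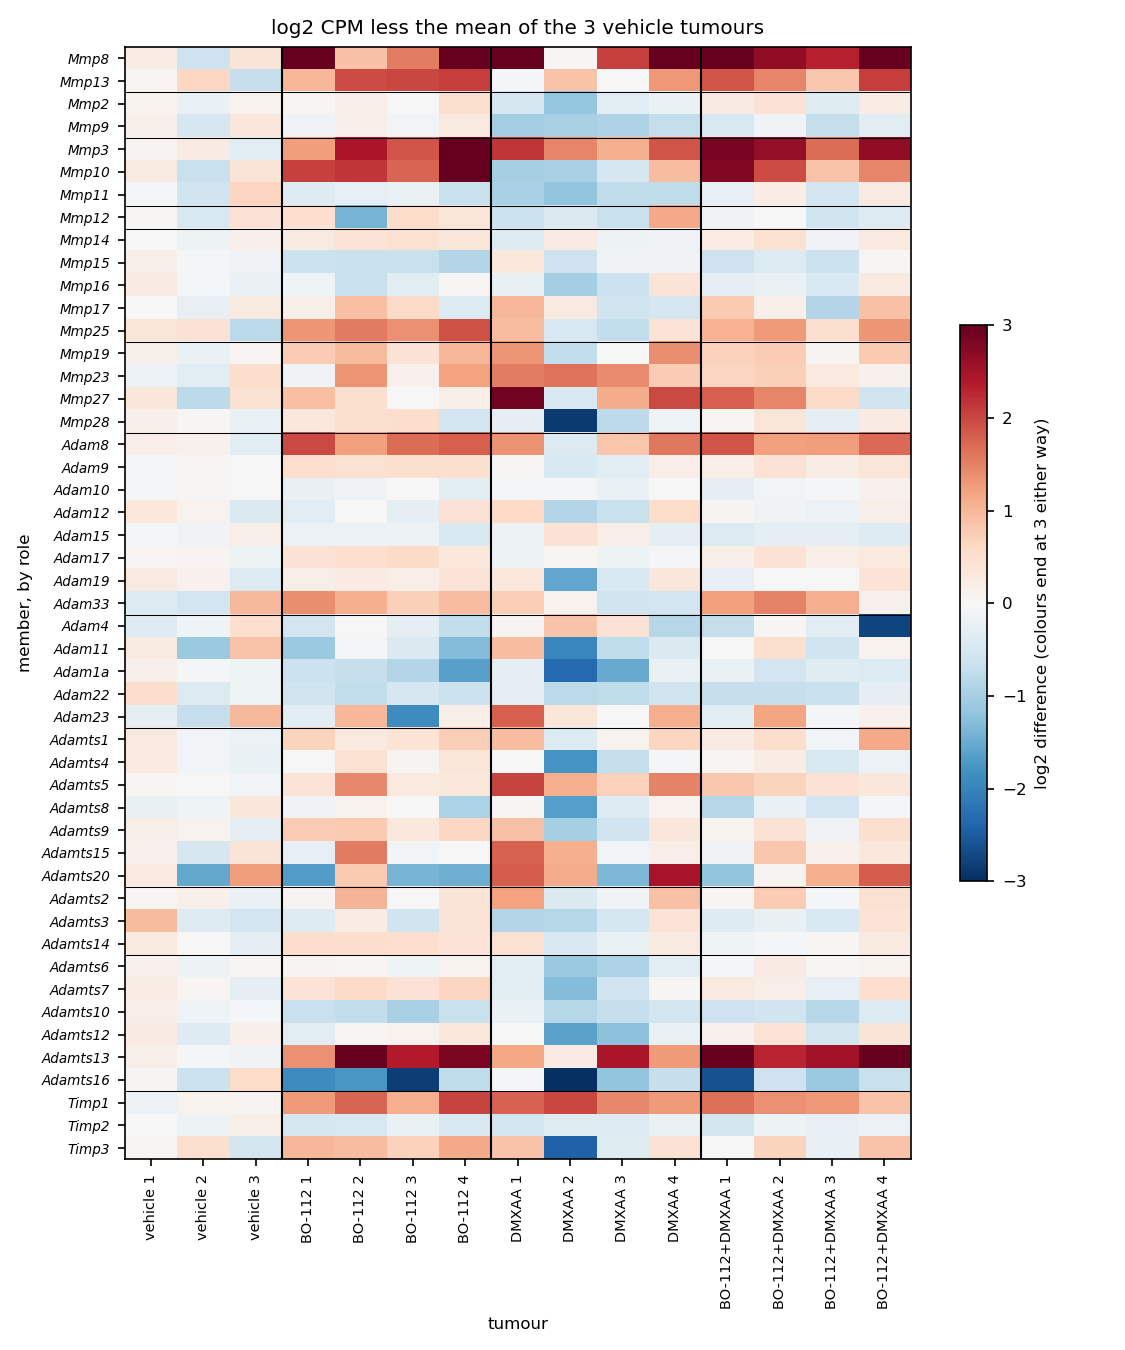
Deposited log2 CPM of the 49 members (vertical axis, by role) in each of the 15 tumours (horizontal axis) less the mean of the 3 vehicle tumours, with colours ending at a difference of 3 in either direction. Timp1 is above vehicle in all 12 treated tumours. Mmp10 is high in tumours that received BO-112, and with DMXAA alone it lies on both sides of the vehicle mean, from -1.01 to 0.92.

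Timp1, the inducible and secreted inhibitor of most MMPs, was the only member called with every treatment. Mmp3 and Adamts5 also lay wholly above vehicle in every treated group, and Adamts10 and Adam1a wholly below it, without passing in each. Its level was 50.0, 59.9 and 58.9 CPM in the vehicle tumours. BO-112 tumours held 137, 188, 119 and 230 CPM, DMXAA tumours 190, 226, 152 and 137 CPM, and tumours given both agents 175, 144, 137 and 102 CPM. All 12 treated tumours lay above all 3 vehicle tumours. Timp1 rose by 1.54 ± 0.23 on the log2 scale with BO-112 (SE, 2.91-fold, adjusted p = 0.000423). With DMXAA it rose by 1.62 ± 0.23 (3.08-fold, adjusted p = 0.00412) and with both agents by 1.29 ± 0.23 (2.44-fold, adjusted p = 0.00481). The mean with both agents, 140 CPM, was not above that with BO-112 (169 CPM) or DMXAA (176 CPM). The interaction measures this: it compares the step that DMXAA adds on top of BO-112 with the step it makes from vehicle, as a log2 difference. For Timp1 it was -1.88 ± 0.31 (adjusted p = 0.0119), the only member past the threshold, while 1.35% of all genes were (1.15% negative). A model in which the log2 effects add would have placed the combination 3.67-fold higher than it was. Without the 4 muscle-rich libraries, which leaves 2 vehicle and 2 DMXAA tumours, Timp1 kept 1.70 with DMXAA (adjusted p = 0.106) and -2.03 in the interaction (adjusted p = 0.0953). In a fit of the compared groups alone the DMXAA call was also lost.

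The other inhibitors moved less. Timp2, which serves both as an inhibitor and as a partner in Mmp2 activation, stood at 909, 821 and 1041 CPM in vehicle tumours and at 652, 657, 805 and 665 CPM with BO-112. All BO-112 values lay below all vehicle values, in a comparison where 35% of all genes had ranges that did not overlap. The log2 difference of -0.41 ± 0.14 did not pass the test (adjusted p = 0.0634). DMXAA tumours held 620, 717, 706 and 805 CPM and tumours with both agents 632, 827, 771 and 815 CPM. Timp3, the matrix-bound inhibitor that also blocks ADAM17, was at 20.9, 28.3 and 13.8 CPM in vehicle tumours and at 40.0, 38.0, 32.5 and 44.3 CPM with BO-112. Its log2 difference of 0.93 ± 0.56 did not pass (adjusted p = 0.320). Timp3 ranged from 3.70 to 36.3 CPM among the DMXAA tumours, the lowest being DMXAA 2. Timp2 was called lower with BO-112 when libraries were scaled by total reads, in the compared groups alone, and without BO-112 3, DMXAA 2, or both DMXAA 2 and DMXAA 3. Timp3 was called higher with BO-112 in the compared groups alone and without both DMXAA 2 and DMXAA 3.

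The stromelysins Mmp3 and Mmp10 and the collagenase Mmp13 gave large increases after BO-112. Mmp3, a broad matrix protease that also activates other MMP precursors, stood at 18.6, 21.1 and 14.2 CPM in vehicle tumours. With BO-112 it reached 42.7, 97.5, 65.6 and 183 CPM, and with both agents 129, 110, 56.8 and 111 CPM. Every tumour that received BO-112 exceeded every vehicle tumour, though the BO-112 values spread over a wide range. The log2 change was 2.24 ± 0.40 with BO-112 (4.73-fold, adjusted p = 0.00179) and 2.45 ± 0.40 with both agents (5.48-fold, adjusted p = 0.00263). DMXAA tumours held 78.4, 48.7, 37.5 and 66.1 CPM, overlapping the BO-112 and both-agent tumours but not vehicle. Their log2 difference of 1.64 ± 0.40 missed the threshold (adjusted p = 0.0622). The Mmp3 calls with BO-112 and with both agents held in every alternative analysis and with each tumour left out. With DMXAA, Mmp3 was called when BO-112 1 or BO-112 4 was left out, tumours outside that comparison.

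Mmp10, stromelysin-2, differed from Mmp3 in its values after DMXAA. Vehicle tumours held 3.84, 2.00 and 4.15 CPM, and BO-112 tumours 13.2, 14.2, 10.7 and 35.2 CPM. DMXAA tumours stayed at 1.57, 1.58, 2.22 and 6.03 CPM, overlapping vehicle, and tumours with both agents held 22.0, 12.3, 5.78 and 8.75 CPM. Mmp10 rose 5.10-fold with BO-112 (log2 2.35 ± 0.53, adjusted p = 0.00860), and it was 6.70-fold higher with BO-112 than with DMXAA (log2 2.74 ± 0.49, adjusted p = 0.00199). With both agents its log2 difference from vehicle, 1.76 ± 0.53, did not pass (adjusted p = 0.112). Both Mmp10 calls were lost without the muscle-rich libraries, at log2 2.12 (adjusted p = 0.0939) and 2.48 (adjusted p = 0.0582). The third gene of the group, Mmp11, which cuts few matrix proteins, did not pass in any comparison of the main fit and had group means of 66.1, 48.3, 33.0 and 60.7 CPM for vehicle, BO-112, DMXAA and both agents.

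Mmp13 is the main interstitial collagenase of the mouse. It was at 27.0, 40.0 and 16.1 CPM in vehicle tumours and at 52.0, 101, 104 and 110 CPM with BO-112. Tumours with both agents held 96.3, 71.9, 45.5 and 109 CPM, above vehicle in each case, and DMXAA tumours 24.9, 46.6, 25.7 and 63.8 CPM, overlapping vehicle. Mmp13 rose 3.40-fold with BO-112 (log2 1.77 ± 0.40, adjusted p = 0.00860), a call lost only without vehicle 3, the lowest vehicle tumour (log2 1.42, adjusted p = 0.0604). With both agents the log2 difference of 1.56 ± 0.40 just missed the threshold (adjusted p = 0.0505).

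Mmp8, the neutrophil collagenase, was at 0.783, 0.424 and 0.890 CPM in vehicle tumours and at 15, 4.36, 3.51 and 19.1 CPM with both agents. It rose 11.7-fold with both agents (log2 3.55 ± 0.87, adjusted p = 0.0404). BO-112 tumours held 7.46, 1.26, 2.00 and 6.89 CPM and DMXAA tumours 7.96, 0.679, 2.84 and 9.61 CPM, and neither group passed (adjusted p = 0.104 and 0.216). Mmp8 was called with BO-112 in the compared groups alone, with the replicate number as a block, and without DMXAA 2 or both DMXAA 2 and DMXAA 3. The tumours with the most Mmp8 were also those with the most S100a9, a neutrophil marker. S100a9 was at 49.4 and 74.9 CPM in the first and the fourth tumour with both agents. It was at 9.52 and 14.8 CPM in the other pair and at most 0.848 CPM in vehicle. Of the 7 neutrophil markers, which include Mmp8, the summed level was 29.4 to 40.0 CPM in vehicle and 70.8 to 231 CPM with both agents, and Ly6g was at or near 0 throughout. The part of neutrophil number in the Mmp8 values was not tested. The Mmp8 call with both agents was lost without any 1 of 8 tumours, among them each vehicle tumour, the adjusted p then reaching up to 0.148.

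**Figure D3:**
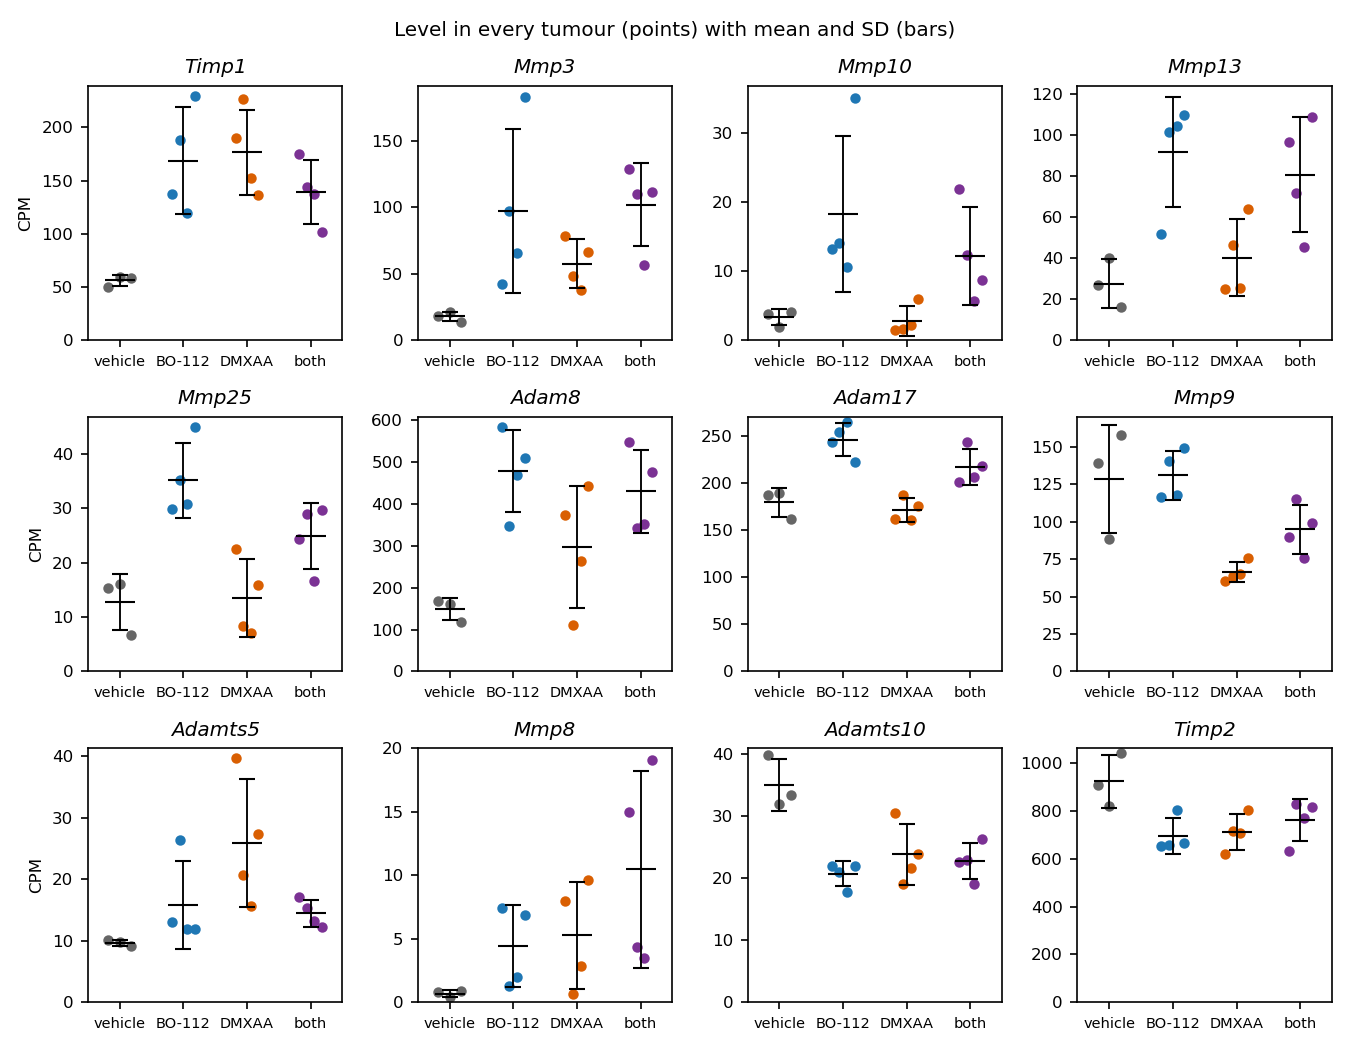
CPM (linear axes from 0) of 12 members in every tumour by group, with points for tumours and bars for the mean and SD of 3 vehicle or 4 treated tumours. Timp1 lies between 102 and 230 CPM in the treated tumours against 50.0 to 59.9 CPM in vehicle, and Mmp10 is above vehicle in every BO-112 tumour while its DMXAA values overlap vehicle.

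Both gelatinases differed between the agents. Mmp9, made largely by myeloid cells, was at 139, 88.1 and 158 CPM in vehicle tumours and at 60.2, 63.7, 65.1 and 75.8 CPM with DMXAA. All DMXAA tumours lay below all vehicle tumours, and Mmp9 fell by 0.92 on the log2 scale (SE 0.18, 1.89-fold lower, adjusted p = 0.0258). BO-112 tumours, at 117, 141, 118 and 149 CPM, overlapped vehicle, with a log2 difference of 0.06 ± 0.18 and an interval from -0.33 to 0.46. Tumours with both agents lay between, at 89.9, 115, 75.6 and 98.8 CPM. Mmp9 was 1.97-fold higher with BO-112 than with DMXAA (log2 0.98 ± 0.17, adjusted p = 0.00169), and this call held in every alternative and with each tumour left out. The fall against vehicle was less firm: it was lost without vehicle 1, vehicle 3 or DMXAA 3, without both DMXAA 2 and DMXAA 3 (adjusted p = 0.0765), in the compared groups alone (adjusted p = 0.263), and without the muscle-rich libraries (log2 -1.09, adjusted p = 0.0852). Beside the lower Mmp9, the summed neutrophil markers were 37.0 to 145 CPM with DMXAA, against 29.4 to 40.0 CPM in vehicle. The summed macrophage markers were 1498 to 3059 CPM, against 1463 to 1973 CPM in vehicle, but did not move together. C1qa alone gave 2337 CPM of the highest sum, in DMXAA 2. Csf1r was at 276 to 321 CPM with DMXAA against 411 to 468 CPM in vehicle, while Adgre1, Cd68 and Mrc1 overlapped vehicle. The part of cell numbers in the Mmp9 values was not tested.

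Mmp2, the gelatinase of fibroblasts, was at 309, 250 and 313 CPM in vehicle tumours, 301, 335, 292 and 402 CPM with BO-112 and 203, 129, 227 and 253 CPM with DMXAA. It was 1.68-fold higher with BO-112 than with DMXAA (log2 0.74 ± 0.20, adjusted p = 0.0219), while neither agent passed against vehicle. The lowest value, in DMXAA 2, came from the tumour with the lowest summed fibroblast markers, 2403 CPM, and one of the pair high in short transcripts. Most of that sum was Col3a1 (1599 CPM) and Col1a1 (369 CPM). In DMXAA 2 both and Pdgfra lay below vehicle, Dcn lay within the vehicle range, and Pdpn and Lum lay above it. Without DMXAA 2 and DMXAA 3 the difference between the agents was 0.54 on the log2 scale and did not pass (adjusted p = 0.0938). What these features contributed was not tested.

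Among the 5 measured membrane-type MMPs, Mmp25 rose and Mmp15 fell with BO-112. Mmp25, a membrane-anchored protease known from leukocytes, was at 15.4, 16.2 and 6.76 CPM in vehicle tumours and at 29.8, 35.3, 30.8 and 44.9 CPM with BO-112. It rose 2.91-fold (log2 1.54 ± 0.38, adjusted p = 0.0145), a call lost only without vehicle 3 (log2 1.13, adjusted p = 0.0954). DMXAA tumours held 22.6, 8.45, 7.07 and 15.8 CPM, within and around the vehicle range, and the difference between the agents was 2.87-fold (log2 1.52 ± 0.35, adjusted p = 0.00937). Without DMXAA 2 and DMXAA 3, the lowest pair, it was 0.87 on the log2 scale and did not pass (adjusted p = 0.140). Mmp15 fell by 0.71 on the log2 scale with BO-112 (SE 0.22, adjusted p = 0.0488), from 7.05, 5.93 and 5.75 CPM to 3.95, 3.91, 3.92 and 3.38 CPM. That call sat at the threshold and was lost without any 1 of 12 tumours, among them each vehicle and each BO-112 tumour. Mmp14, the most abundant of the group and the cell-surface activator of Mmp2, was at 552, 500 and 609 CPM in vehicle and 664, 732, 755 and 712 CPM with BO-112, and its log2 difference of 0.37 ± 0.15 did not pass (adjusted p = 0.129). Mmp14 was called with BO-112 in the compared groups alone and without DMXAA 2 or both DMXAA 2 and DMXAA 3. Against DMXAA tumours, at 423, 651, 494 and 515 CPM, Mmp14 was 1.39-fold higher with BO-112 (adjusted p = 0.0296).

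Mmp12, the macrophage elastase, carries the AP-1 letters printed above and gave no call. Its group values overlapped: 42.1, 29.4 and 54.9 CPM in vehicle, 57.7, 15.6, 59.7 and 52.1 CPM with BO-112, 26.0, 30.0, 25.8 and 90.5 CPM with DMXAA and 38.0, 40.9, 27.1 and 31.0 CPM with both agents. With BO-112 its log2 difference was 0.00 ± 0.47, with an interval from -1.0 to 1.01. The 4 remaining MMPs (Mmp19, Mmp23, Mmp27 and Mmp28) gave no call in any comparison of the main fit. The most abundant of them, Mmp19, was at 18.8, 14.6 and 17.6 CPM in vehicle and 28.7, 32.7, 22.8 and 33.6 CPM with BO-112, with a log2 difference of 0.79 ± 0.40 (adjusted p = 0.229). Mmp19 was called with BO-112 in the compared groups alone and without both DMXAA 2 and DMXAA 3.

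Of the 8 sheddase-type ADAMs, Adam8, Adam9 and Adam17 rose with BO-112. Adam8, found on myeloid cells, was at 168, 160 and 119 CPM in vehicle tumours, 584, 348, 470 and 511 CPM with BO-112 and 548, 344, 353 and 475 CPM with both agents. All tumours that received BO-112 exceeded all vehicle tumours. Adam8 rose 3.19-fold with BO-112 (log2 1.67 ± 0.36, adjusted p = 0.00636) and 2.86-fold with both agents (log2 1.52 ± 0.36, adjusted p = 0.0339). With DMXAA it was spread from 110 CPM in DMXAA 2 to 444 CPM in DMXAA 4 and did not pass (log2 0.84 ± 0.36, adjusted p = 0.255). Adam8 was called higher with DMXAA without DMXAA 2 or both DMXAA 2 and DMXAA 3. Its interaction, on the negative side, was then called too. The 3 monocyte markers did not move together. Plac8 and Ly6c2 were at 10.8 to 24.6 and 14.8 to 16.9 CPM in vehicle and at 114 to 197 and 148 to 228 CPM with BO-112. Ccr2 was at 150, 130 and 217 CPM in vehicle and at 61.6, 67.1, 60.6 and 43.3 CPM with BO-112. The summed neutrophil markers were 29.4 to 40.0 CPM in vehicle, 75.8 to 117 CPM with BO-112 and 37.0 to 145 CPM with DMXAA. Among them Retnlg and Ly6g overlapped vehicle with BO-112. The summed macrophage markers with BO-112 overlapped vehicle. The part of monocyte, neutrophil or macrophage number in the Adam8 values was not tested. Without the muscle-rich libraries Adam8 stood at log2 1.63 with BO-112 (adjusted p = 0.0677) and 1.58 with both agents (adjusted p = 0.132). The call with both agents was also lost without any 1 of 8 tumours, each vehicle tumour among them.

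Adam17, the enzyme that releases TNF and its receptors, changed by less and with little spread. Vehicle tumours held 187, 190 and 162 CPM, BO-112 tumours 244, 254, 265 and 223 CPM, and DMXAA tumours 162, 188, 161 and 175 CPM. Adam17 rose 1.37-fold with BO-112 (log2 0.46 ± 0.11, adjusted p = 0.0101) and was 1.44-fold higher with BO-112 than with DMXAA (log2 0.52 ± 0.10, adjusted p = 0.00265). The call against vehicle was lost without vehicle 3 (adjusted p = 0.0686), with libraries scaled by total reads (adjusted p = 0.0708) or without the muscle-rich ones (adjusted p = 0.0638). Scaling by total reads moves the median of all genes by -0.16 in that comparison. Adam9 gave a change of like size: 215, 231 and 226 CPM in vehicle against 317, 309, 311 and 311 CPM with BO-112, or 1.39-fold (log2 0.48 ± 0.13, adjusted p = 0.0301). Its DMXAA values were 231, 164, 180 and 257 CPM, and the agents differed 1.53-fold (log2 0.61 ± 0.12, adjusted p = 0.00464). The Adam9 call against vehicle was lost without any 1 of 7 tumours, namely each vehicle and each BO-112 tumour. It was also lost with scaling by total reads, with the replicate number as a block, and without the muscle-rich libraries.

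Adam10, the sheddase of Notch and of several adhesion molecules, is the closest relative of Adam17 and did not pass in any comparison. It was at 160, 168 and 161 CPM in vehicle, 139, 150, 164 and 131 CPM with BO-112, 160, 160, 141 and 163 CPM with DMXAA and 135, 155, 160 and 178 CPM with both agents. Its log2 interval for BO-112 ran from -0.40 to 0.07, which lies below the Adam17 interval of 0.23 to 0.68. The difference between these 2 genes was not itself tested. The other sheddase-type members, Adam12, Adam15, Adam19 and Adam33, gave no call in any comparison of the main fit. None of the 5 other ADAMs (Adam1a, Adam4, Adam11, Adam22 and Adam23) gave one either, and their group means ran from 0.410 CPM (Adam4 with both agents) to 3.85 CPM (Adam11 in vehicle).

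Among the 16 ADAMTS proteases 1 proteoglycan-cutting gene changed, and it did so with DMXAA. Adamts5, the main aggrecan-cutting enzyme of the mouse, was at 10.2, 9.75 and 9.19 CPM in vehicle and at 39.8, 20.8, 15.7 and 27.4 CPM with DMXAA. It rose 2.51-fold (log2 1.33 ± 0.30, adjusted p = 0.0450). BO-112 tumours held 13, 26.4, 11.9 and 12 CPM and tumours with both agents 17.1, 15.3, 13.2 and 12.2 CPM, above every vehicle tumour in each case, without passing (adjusted p = 0.205 and 0.532). Several tumours with high Adamts5 were high in fat-cell markers: Adipoq was at 16.4 CPM in DMXAA 1, 11.6 CPM in DMXAA 2 and 22.4 CPM in BO-112 2, against at most 0.771 CPM in vehicle, whereas DMXAA 4, with 27.4 CPM of Adamts5, had 0.716 CPM of Adipoq. The part of fat tissue in these values was not tested. The Adamts5 call was lost without any 1 of 12 tumours and in 4 of 9 other analyses, the adjusted p then reaching up to 0.250. Adamts1, Adamts4 and Adamts9, which cut versican or aggrecan, gave no call. Their log2 differences with BO-112 were 0.53 ± 0.29, 0.23 ± 0.33 and 0.62 ± 0.33. In the compared groups alone Adamts1 and Adamts9 were called with BO-112, and Adamts9 also without both DMXAA 2 and DMXAA 3.

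Adamts10, a protease tied to fibrillin microfibrils, was lower in treated tumours. It was at 39.9, 32.0 and 33.4 CPM in vehicle, 22.0, 21.1, 17.8 and 22.1 CPM with BO-112, 30.6, 19.2, 21.8 and 24.0 CPM with DMXAA and 22.7, 23.0, 19.2 and 26.4 CPM with both agents. All 12 treated tumours lay below all 3 vehicle tumours. Adamts10 fell by 0.76 on the log2 scale with BO-112 (SE 0.16, adjusted p = 0.00526), a call that held in every alternative and with each tumour left out. With both agents it fell by 0.62 (SE 0.16, adjusted p = 0.0497), at the threshold, and the call was lost without any 1 of 12 tumours. The DMXAA difference of -0.57 ± 0.16 did not pass (adjusted p = 0.101).

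Adamts13, the von Willebrand factor-cutting protease, had 0 reads in each vehicle tumour, 12 reads over the 4 BO-112 tumours, 4 over the DMXAA tumours and 17 over those with both agents. Set against a floor of 3 reads over the vehicle group, it was at least 2.89-fold higher with BO-112 and at least 4.68-fold higher with both agents, and no fold is given for DMXAA. The test called both (adjusted p = 0.0304 and 0.0238), but at 0 to 7 reads a library each call was lost when any vehicle tumour was left out. Adamts14, which trims procollagen, was the most abundant ADAMTS per kilobase in vehicle (21.8 ± 4.26 CPM per kb, n = 3) and gave no call. It was at 135, 113 and 91.0 CPM in vehicle and at 160, 162, 159 and 149 CPM with BO-112 (log2 0.50 ± 0.19, adjusted p = 0.105). Adamts14 was called with BO-112 in the compared groups alone and without DMXAA 2 or both DMXAA 2 and DMXAA 3.

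BO-112 and DMXAA were compared directly, at 50 and 100 µg in the same volume and at the same time, so the agents differ in dose as well as in kind. With BO-112, 10 members were higher than with DMXAA and none lower, or 20.4% of members, while 21.4% of all genes were called, 11.2% higher and 10.2% lower. The share of members called was therefore near the background. The direction of the calls depended on the analysis: 10 were higher and 1 lower with a stricter filter or limma-voom, 9 and 3 with the length trend removed, and 6 and 3 without DMXAA 2 and DMXAA 3. Of all genes, 25.5%, 20.3%, 20% and 10.9% were called in these analyses. Besides Mmp9, Mmp2, Mmp10, Mmp13, Mmp14, Mmp25, Adam9 and Adam17, the 10 held Adamts6 and Adamts7. Adamts7, a vascular protease, was at 49.1, 55.5, 50.0 and 58.2 CPM with BO-112 and 29.1, 15.1, 24.4 and 37.9 CPM with DMXAA (log2 1.07 ± 0.23, adjusted p = 0.00592). Adamts6 was at 14.2, 14.1, 12.4 and 14.4 CPM against 10.7, 6.19, 7.07 and 10.8 CPM (log2 0.70 ± 0.17, adjusted p = 0.0114). Vehicle tumours held 14.7, 12.1 and 13.9 CPM of Adamts6, so the DMXAA tumours were the low ones. DMXAA 2 and DMXAA 3 held the lowest values of both genes. Without these tumours the calls of Adamts6 (log2 0.36, adjusted p = 0.0789), Mmp13 (1.14, adjusted p = 0.195), Mmp25 and Mmp2 were lost. Without the 4 muscle-rich libraries 2 of the 10 calls remained, Mmp9 and Mmp25, and 4.47% of all genes were called. The calls of Mmp13 and Mmp14 were also lost without BO-112 2, BO-112 3, BO-112 4 or DMXAA 3, and that of Mmp2 without BO-112 4. Timp1 did not pass between the agents, with an interval from -0.54 to 0.37.

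Adding DMXAA to BO-112 called 0 members at the adjusted threshold, and 0% of all genes. At an unadjusted p under 0.05 there were 2 members, or 4.08% against 9.54% of all genes. Limma-voom also called 0, while a fit of the compared groups alone called 1 member, Adamts14, as lower and 2.04% of all genes. The intervals for both agents against BO-112 ran from -0.70 to 0.20 for Timp1, from -0.59 to 1.01 for Mmp3 and from -0.87 to 0.55 for Adam8. Adding BO-112 to DMXAA called 1 member, Adamts6, and 0.886% of all genes (0.717% higher). It was at 13.1, 15.9, 13.9 and 14.5 CPM with both agents (log2 0.76 ± 0.17, adjusted p = 0.0493), and the call was lost in most alternatives. At an unadjusted p under 0.05 there were 19 members in that comparison, or 38.8% against 23.9% of all genes.

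**Figure D4:**
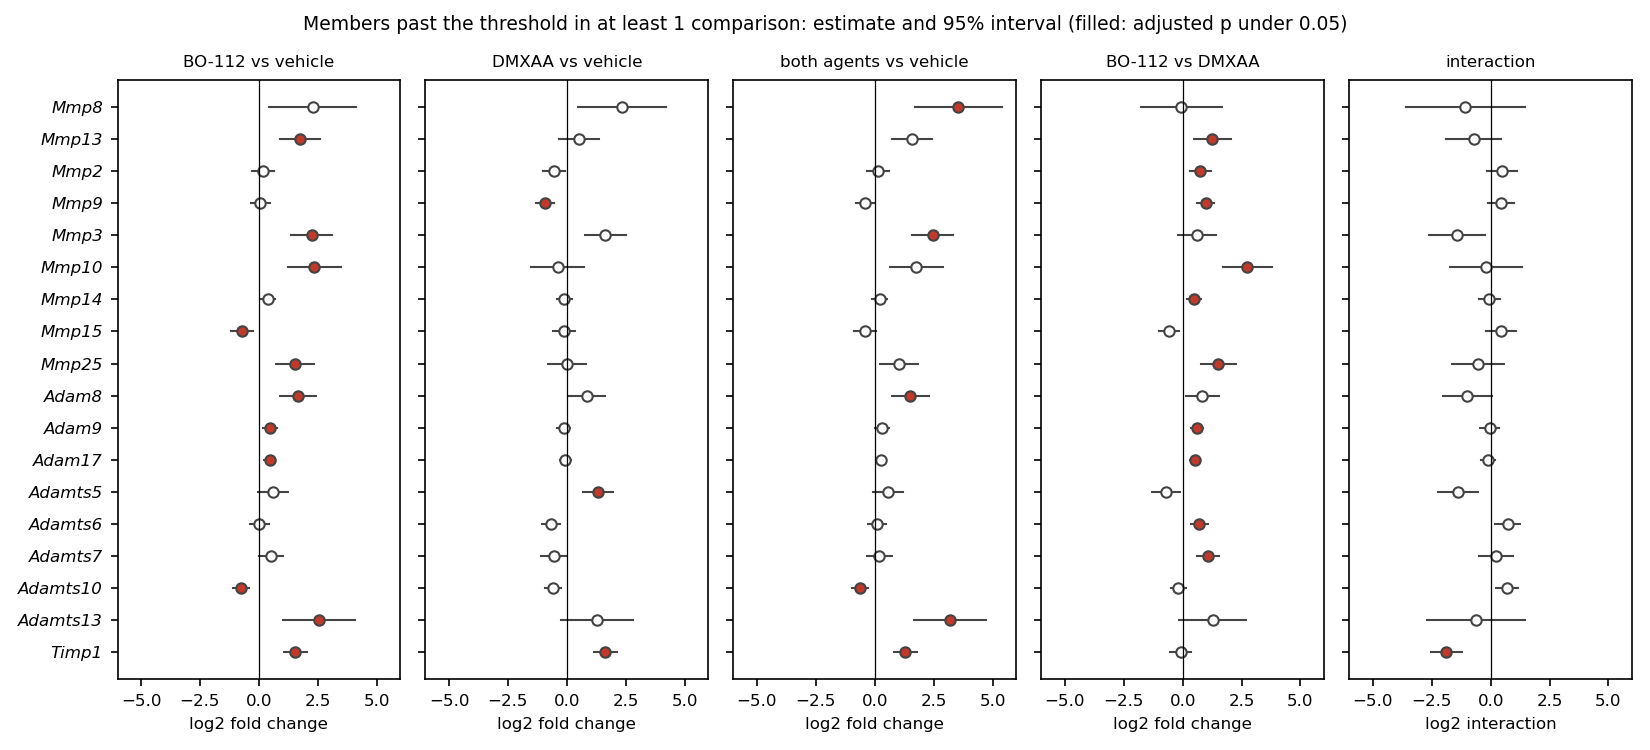
Log2 fold change (horizontal axis, point) and 95% interval (line) of the members past the threshold in at least 1 comparison, for the 3 comparisons with vehicle, BO-112 against DMXAA and the interaction. Filled points passed at an adjusted p under 0.05. Timp1 is filled in all 3 comparisons with vehicle and, on the negative side, in the interaction at -1.88.

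Partners of these proteases were counted from 4 lists. Of 34 measured activators, cofactors and inhibitors, 10 rose and 3 fell with BO-112, 1 rose with DMXAA, and 3 rose with both agents. These are 38.2% of the list against 11.9% of all genes, 2.94% against 1.25%, and 8.82% against 2.67%. The iRhom gene Rhbdf2, which carries ADAM17 to the cell surface, went from 51.1, 59.6 and 47.7 CPM in vehicle to 102, 110, 106 and 89.2 CPM with BO-112 (log2 0.95 ± 0.13, adjusted p = 0.000226). DMXAA tumours held 59.0, 44.7, 46.3 and 50.4 CPM of Rhbdf2, and the agents differed by 1.03 ± 0.12 (adjusted p = 0.000117). Its paralogue Rhbdf1 did not pass with BO-112 (log2 -0.24 ± 0.12, adjusted p = 0.216). The plasminogen activator Plau and its receptor Plaur, which start a cascade that activates MMP precursors, rose by 0.75 ± 0.13 and 0.72 ± 0.13 with BO-112 (adjusted p = 0.00128 and 0.00210). Tfpi2, a protease inhibitor of the matrix, rose by 2.62 ± 0.39 with BO-112 and by 1.55 ± 0.39 with both agents (adjusted p = 0.000425 and 0.0487). Lcn2, which binds and stabilises Mmp9 protein, was called with BO-112 and was also the only gene of the list called with DMXAA. It went from 0.356, 0.605 and 0.0593 CPM in vehicle to 40.1, 8.23, 9.56 and 21.2 CPM with DMXAA. The membrane-anchored MMP inhibitor Reck did not pass (log2 -0.20 ± 0.21, adjusted p = 0.601), nor did the proprotein convertase Furin against vehicle (0.49 ± 0.17, adjusted p = 0.0758). The BO-112 calls of Rhbdf2, Plau, Plaur, Tfpi2 and Lcn2 held in every alternative and with each tumour left out. The Lcn2 call with DMXAA was lost under limma-voom and in the compared groups alone, and that of Tfpi2 with both agents without any 1 of 10 tumours.

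Of 42 measured membrane proteins known to be shed, 15 rose and 5 fell with BO-112 and none passed with DMXAA. With both agents 5 rose, among them Tnf, Tnfrsf1b, Vcam1 and Kdr, and none fell. The shares were 47.6% against 11.9% of all genes with BO-112, 0% against 1.25% with DMXAA and 11.9% against 2.67% with both agents. Tnf, the classic Adam17 substrate, was at 7.05, 11.6 and 3.02 CPM in vehicle and at 37.8, 44.7, 35.5 and 19.5 CPM with BO-112 (log2 2.38 ± 0.34, adjusted p = 0.000321). Its receptor Tnfrsf1b rose by 1.17 ± 0.15 and the adhesion molecule Vcam1 by 1.45 ± 0.17 with BO-112 (adjusted p = 0.000148 and 4.78e-05). The genes that fell were Cdh1, Trem2, Efnb2, Csf1r and Il6ra. Kdr is itself 1 of the 5 endothelial markers, at 16.1 to 24.0 CPM in vehicle and 79.1 to 89.8 CPM with BO-112. Of the others, Pecam1 was at 60.3 to 70.5 CPM in vehicle and 59.5 to 69.6 CPM with BO-112, Vwf at 48.1 to 50.2 and 40.6 to 45.7, Cdh5 at 39.5 to 46.4 and 47.0 to 69.0, and Egfl7 at 11.9 to 15.2 and 16.8 to 22.4 CPM. The part of endothelial cell number in the Kdr and Vcam1 values was not tested.

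Few matrix substrates passed the test. Of 26 measured matrix genes, 2 rose with BO-112, Thbs1 (log2 2.24 ± 0.56, adjusted p = 0.0168) and Dcn (1.06 ± 0.21, adjusted p = 0.00334), or 7.69% against 11.9% of all genes, and none passed with DMXAA or with both agents. The Thbs1 call was lost without vehicle 3 or BO-112 4, and both calls without the muscle-rich libraries. Of 14 measured AP-1 and ETS genes, whose products bind MMP promoters, 5 rose with BO-112, none passed with DMXAA, and Fos and Ets2 rose with both agents. The shares were 35.7% against 11.9% of all genes, 0% against 1.25% and 14.3% against 2.67%. With BO-112 Fos rose by 1.94 ± 0.41 (adjusted p = 0.00569), Ets2 by 1.32 ± 0.17 (adjusted p = 0.000153) and Junb by 0.94 ± 0.18 (adjusted p = 0.00324). Fos stood at a log2 difference of 1.27 ± 0.41 with DMXAA, which did not pass (adjusted p = 0.166).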

How the data were processed

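Whole-tumour mRNA libraries of 15 tumours were used. STAR, edgeR, limma and the mm39 build are named in the submitters' processing notes. The deposited table holds log2 CPM of 17712 genes, with 0.5 reads added and the authors' library scaling factors, which ran from 0.85 to 1.08. Reads were recovered from it as whole numbers (100% of values within 1e-06). A second table without sample names was left out, with its 15 columns.

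Symbols came from the Ensembl identifiers (17636 of 17712 matched) and exonic lengths from GENCODE M21. Promoter windows are RefSeq's (GRCm38.p6). With limma 3.58.1 in R 4.3.3, group means were fitted to all 15 libraries and all genes, with a trended, robust variance. P-values were Benjamini-Hochberg adjusted over all genes within each of 6 pairwise comparisons and the interaction. An edgeR fit was kept for raw counts only and was not run, since the values used are log2 CPM. The code was tested on simulated data.

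The members and lists were chosen with earlier results of these data known. Named members are those past the threshold in any comparison, a fixed panel, and the most abundant of each role. From the lists came the 3 genes with the smallest adjusted p against vehicle and a panel of 8, of which some are not reported here. Other genes named as the content of a count were chosen after their values were seen. Labels call the samples biological replicates.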

Additional observations from a re-analysis of the deposited data

Results flagged for a closer look

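The interaction of Timp1, -1.88 on the log2 scale, passed the test: this inhibitor rose 2.91-fold with BO-112, 3.08-fold with DMXAA and 2.44-fold with both.

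In 9 of 84 groups of 4 tumours, 1 tumour of a named member stood apart, its gap to the nearest value exceeding Dixon's 95% critical share of the group's log2 range. Chance alone does so in about 1 of 20 groups. Mmp12, the macrophage elastase, did so at both ends: it was low in BO-112 2 (15.6 CPM against 52.1 to 59.7, gap 0.899 of the range) and high in DMXAA 4 (90.5 CPM against 25.8 to 30.0, gap 0.878). Mmp13 was low in BO-112 1, at 52.0 CPM against 101 to 110 (gap 0.894). Adamts5 was high in BO-112 2, at 26.4 CPM against 11.9 to 13 (gap 0.891), a tumour with 22.4 CPM of the fat-cell gene Adipoq. Timp2 was high in BO-112 3, at 805 CPM against 652 to 665 (gap 0.91). Mmp19 was low in the third tumour with both agents, at 17.9 CPM against 27.3 to 29.0 (gap 0.877). Smaller departures were those of Adam10 in DMXAA 3 (141 CPM against 160 to 163, gap 0.862), Mmp15 in BO-112 4 (3.38 CPM against 3.91 to 3.95, gap 0.935) and Adamts6 in BO-112 3 (12.4 CPM against 14.1 to 14.4, gap 0.83).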

How the results depend on the processing

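No member changed direction past the threshold in any analysis. Of 32 member calls over all comparisons, 16 held with each library left out and 8 in each other analysis that could be fitted. The counts below are members called. With BO-112 against vehicle (11 members) a fit of the compared groups gave 21, leaving out the 4 muscle-rich libraries 5, and leaving out DMXAA 2 and DMXAA 3 gave 21. The share of all genes called moved alike, to 24.4%, 6.15% and 25.1% from 11.9%. With DMXAA (3), the compared groups alone gave 0, as did leaving out the muscle-rich libraries. The shares of all genes were then 0.0226% and 0.136%, against 1.25%. With both agents (6), scaling by total reads gave 3 and leaving out the muscle-rich libraries 3. Shares of all genes were 1.98% and 1.99%, against 2.67%. Both agents against BO-112 (0) gave 1 in the compared groups, where 2.04% of all genes were called, against 0%. Both against DMXAA (1) gave 0 with either other scaling, limma-voom, the compared groups, or without the muscle-rich libraries or DMXAA 2 and DMXAA 3, and 2 with a stricter filter (1 CPM in 4 libraries) or with the length trend removed. Where that count was 0, the share of all genes was 0.00565% to 0.886%. It was 1.31% with the stricter filter and 1.42% with the length trend removed, against 0.886%. BO-112 against DMXAA (10) gave 6 in the compared groups and 2 without the muscle-rich libraries, with 7.13% and 4.47% of all genes, against 21.4%. The interaction (1) gave 0 without the muscle-rich libraries, 6 without DMXAA 2 and DMXAA 3, and 2 with the length trend removed. Shares of all genes were 0.203%, 4.01% and 1.95%, against 1.35%. Leaving out 1 tumour at a time gave 6 to 18, 1 to 4, 2 to 7, 0 to 0, 0 to 8, 7 to 18 and 1 to 2 in these comparisons. The shares of all genes called also ranged widely. They were 7.16% to 19.9%, 0.141% to 2.12%, 1.39% to 4.34%, 0% to 0.181%, 0% to 9.96%, 10.6% to 33.3% and 0.367% to 2.57%. For BO-112 the extremes came without vehicle 3 (6) and DMXAA 2 (18), and for DMXAA without vehicle 1 or vehicle 3 (1). For both agents the count was 2 without vehicle 1, vehicle 3 or BO-112+DMXAA 1, and 3 without vehicle 2, BO-112 3, DMXAA 3, BO-112+DMXAA 2 or BO-112+DMXAA 4. BO-112 against DMXAA gave 18 without DMXAA 1 and 17 without DMXAA 4, which gave 6 and 8 for both against DMXAA; the interaction gave 2 without vehicle 2 or DMXAA 2. A fit of fewer libraries has fewer degrees of freedom, and such fits called more members in some cases and fewer in others. What moved the counts was not tested. Leaving out the muscle-rich or short-transcript libraries and removing the length trend were chosen after seeing the data.

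With the replicate number as a block the counts were 9, 4, 6, 0, 1, 11 and 1. Of all genes, 9.95%, 1.6%, 2.66%, 0%, 0.949%, 21.6% and 1.6% were called. Same-numbered tumours did not deviate together (mean correlation 0.0152 over 21 pairs, against -0.0051 over 63 others), so the numbers were not taken to pair the tumours. Scaling by total reads moved the median of all genes by -0.16 with BO-112, -0.13 with DMXAA and 0.21 in the interaction.

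Members below 1 CPM rest on few reads, so changes in Adamts13, Adamts16, Adamts20, Adamts3, Adam4, Mmp17 and Mmp27 were mostly not detectable at this depth.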
